A study of Mus musculus with 6 samples.

Results

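The genes described here are 10 genes of the lipid droplet and of lipolysis, Pnpla2, Lipe, Mgll, Abhd5, G0s2, Plin2, Plin3, Plin4, Plin5 and Dgat1. They were chosen by name, as rows of a gene count table, and all 10 were found among its 37991 rows. The table holds libraries labelled as bone endothelial cells (BECs) of c57/Bl6 mice (C57BL/6J in the study's methods) aged 12 weeks, purified on endomucin, a surface protein of bone vessels. The labels give the tibia as the source, while the study's methods take such cells from tibiae and femurs. Markers of blood cells were far more abundant in these libraries than endothelial markers, so they are called by their label and not as pure endothelial cells. There were 3 female and 3 male libraries, with no treatment or genetic change, and sex was the only difference between the groups that the labels give. In the study's methods the libraries were the best of each set by RNA quality, and the labels do not say that each came from a separate animal, so the p-values measure the spread between these libraries only.

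Lipid droplets store fatty acids as triglyceride inside cells. Lipolysis releases them in steps: adipose triglyceride lipase (Pnpla2) removes the first fatty acid, hormone-sensitive lipase (Lipe) acts on the diglyceride, and monoglyceride lipase (Mgll) on the last. Abhd5 activates Pnpla2 and G0s2 inhibits it, the perilipins (Plin2 to Plin5) coat the droplet and hold lipases off or bring them near it, and Dgat1 makes the triglyceride.

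The libraries held between 47678806 and 58325745 counts, and levels below are CPM, counts scaled to library size with TMM factors, on which 3 counts were worth 0.0477 to 0.0639 CPM. As a check of the sex labels, Xist lay at 152 CPM or more in the females and at 0.70 CPM or less in the males, and Ddx3y, Eif2s3y, Kdm5d and Uty, genes of the Y chromosome, were each lower in every female library than in any male library. No pair of the 6 libraries agreed within sampling noise. The labelled cell type was weakly marked: 15 endothelial markers together took 0.0217% to 0.0566% of a library's counts, against 2.11% to 4.51% for 15 neutrophil, 1.31% to 2.84% for 10 erythroid and 0.326% to 0.544% for 10 macrophage markers. Per kb of transcript they summed to 54.7 to 148 CPM, against 27834 to 69496 CPM for the neutrophil markers. Emcn itself, the gene of endomucin, lay between 3.09 and 10.5 CPM.

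Of the 10 genes, 0 passed the test between the sexes (edgeR's quasi-likelihood test, males over females, adjusted p under 0.05), where 0.0411% of the 19480 genes tested passed. At an unadjusted p under 0.05 there were 4 of 10, Plin5, Dgat1, G0s2 and Abhd5, all with the higher level in males, where 5.03% of all genes tested were at that p and higher in males. DESeq2's Wald test, as another tool, called 1 of the 10, Plin5, where 2.02% of genes passed. The median log2 fold change of the 10 genes was 0.27, beside -0.0012 over all genes tested, and 9 of 10 lay above 0, where 49.8% of all genes did. In 3 of 10 genes, Plin5, Dgat1 and Abhd5, every male library was above every female library, where 7.25% of all genes separated in that direction. In the same libraries 15 neutrophil markers summed to 33144 CPM or more in males and 23896 CPM or less in females, and their part in these differences was not tested. Fewer cells of a type and less RNA per cell cannot be told apart in these bulk libraries.

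**Figure D1:**
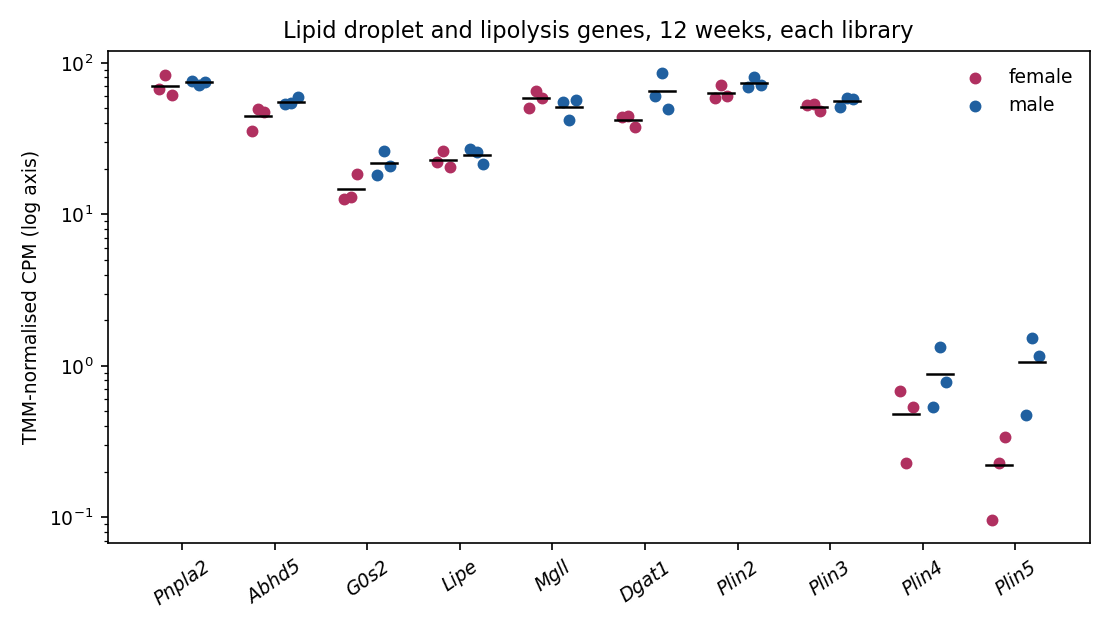
TMM-normalised CPM on a log axis for the 10 genes, with each of the 3 female (red) and 3 male (blue) libraries as a point and the group mean as a black line. Plin4 and Plin5 lie below 2 CPM in the 6 libraries and the other 8 genes between 12.7 and 85.5 CPM.

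Plin5 showed the largest difference of the 10. It codes for a perilipin known from oxidative tissues, where it links the droplet to mitochondria. Its level was 0.0954, 0.227 and 0.341 CPM in the females and 0.475, 1.52 and 1.16 CPM in the males, from 6, 12 and 16 counts against 25, 75 and 55. The groups did not overlap, but the lowest male library stood much nearer to the females than to the other males. The fitted log2 fold change was 2.26 ± 0.63 (SE, n = 3 per sex), a level 4.79 times as high in males, with an adjusted p of 0.262 in edgeR's quasi-likelihood test and 0.0400 in DESeq2's Wald test. With a minimum of 10 counts in every library Plin5 was not tested, since 1 female library lay below it. Plin5 counts per 100 counts of Plin2, in the same library, were 0.164, 0.320 and 0.565 in females and 0.689, 1.88 and 1.62 in males, a description chosen after the values were seen.

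Plin4, its neighbour on chromosome 17, was as sparse. This perilipin is best known from adipocytes and muscle. It lay at 0.684, 0.227 and 0.533 CPM in females and at 0.532, 1.34 and 0.780 CPM in males, from 43, 12 and 25 counts against 28, 66 and 37. The groups overlapped, with a log2 fold change of 0.87 ± 0.55 and an adjusted p of 0.649 in edgeR's test. Without male replicate 2 it was 0.44. The exons of Plin4 share 3124 bases with those of Hdgfl2 on the other strand, which lay at 36.6 to 45.0 CPM. Whether the counting used strand is not given in the sources used here. Plin4 counts could therefore include reads of Hdgfl2 or lack reads that fall on the shared bases.

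The widely expressed perilipins were far higher, and both overlapped between the sexes. Plin2, the common coat protein of droplets outside fat, lay at 58.3, 71.0 and 60.3 CPM in females and at 68.9, 81.1 and 71.5 CPM in males. The male libraries reached higher but the groups overlapped, and the log2 fold change was 0.22 ± 0.12 (adjusted p = 0.594, edgeR). Plin3, a cytosolic protein that coats new droplets, lay at 52.6, 53.2 and 48.01 CPM in females and at 50.8, 58.2 and 57.7 CPM in males. Its log2 fold change was 0.12 ± 0.11 (adjusted p = 0.781, edgeR), within the spread between libraries, and it lay between 0.07 (without female replicate 3) and 0.18 (without male replicate 1) with each library left out.

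Dgat1, the only enzyme of triglyceride synthesis among the 10, was at 44.0, 44.5 and 37.9 CPM in females and at 60.4, 85.5 and 49.7 CPM in males. Every male library was above every female library, though the males spread over 35.8 CPM and the females over 6.64 CPM. The log2 fold change was 0.63 ± 0.18, a level 1.55 times as high in males, with an adjusted p of 0.287 (edgeR) and 0.0619 (DESeq2's Wald test). Without male replicate 2 the log2 fold change was 0.39, and without male replicate 3 it was 0.79, with an edgeR adjusted p of 0.0535. Its exons share 2486 bases with Hsf1 on the other strand, so the limit given for Plin4 holds for its counts too. Hsf1 lay at 18.5 to 24.1 CPM, with a log2 fold change of -0.22 ± 0.13.

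Of the regulators of Pnpla2, G0s2 was at 12.7, 13.0 and 18.4 CPM in females and at 18.1, 26.3 and 21.0 CPM in males. The highest female library lay just above the lowest male library, so the groups overlapped. The log2 fold change was 0.57 ± 0.19, a level 1.48 times as high in males (adjusted p = 0.360, edgeR). Abhd5, the co-activator, was at 35.7, 49.8 and 47.7 CPM in females and at 53.1, 54.4 and 59.0 CPM in males. The groups did not overlap, with a log2 fold change of 0.32 ± 0.14, a level 1.25 times as high in males (adjusted p = 0.484, edgeR). The unadjusted p exceeded 0.05 for G0s2 without female replicate 1, without female replicate 2 or without male replicate 2, where it was 0.0507, 0.0600 and 0.0794. For Abhd5 it was 0.146 without female replicate 1, where the log2 fold change was 0.20, and 0.0563, 0.0733 and 0.0966 without male replicates 1, 2 and 3.

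The 3 lipases did not separate by sex. Pnpla2 was at 67.3, 83.1 and 61.4 CPM in females and at 75.8, 71.9 and 75.0 CPM in males, so that the male libraries lay inside the female range. Its log2 fold change was 0.07 ± 0.13 (adjusted p = 0.891, edgeR), and it was -0.02 without female replicate 3. Lipe was at 22.1, 26.0 and 20.6 CPM in females and at 26.9, 25.9 and 21.5 CPM in males, a log2 fold change of 0.11 ± 0.15 (adjusted p = 0.839, edgeR) that lay between 0.04 (without female replicate 3) and 0.22 (without female replicate 2) with each library left out. Mgll was the one gene of the 10 with a lower fitted level in males, at 50.3, 65.3 and 59.0 CPM in females and at 55.2, 41.8 and 56.9 CPM in males. The groups overlapped, with a log2 fold change of -0.18 ± 0.15 (adjusted p = 0.740, edgeR), which was -0.05 without male replicate 2 and -0.09 without female replicate 2. G0s2 counts per 100 counts of Pnpla2 were 18.9, 15.7 and 29.9 in females and 23.9, 36.6 and 28.0 in males, and these ratios overlapped too.

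**Figure D2:**
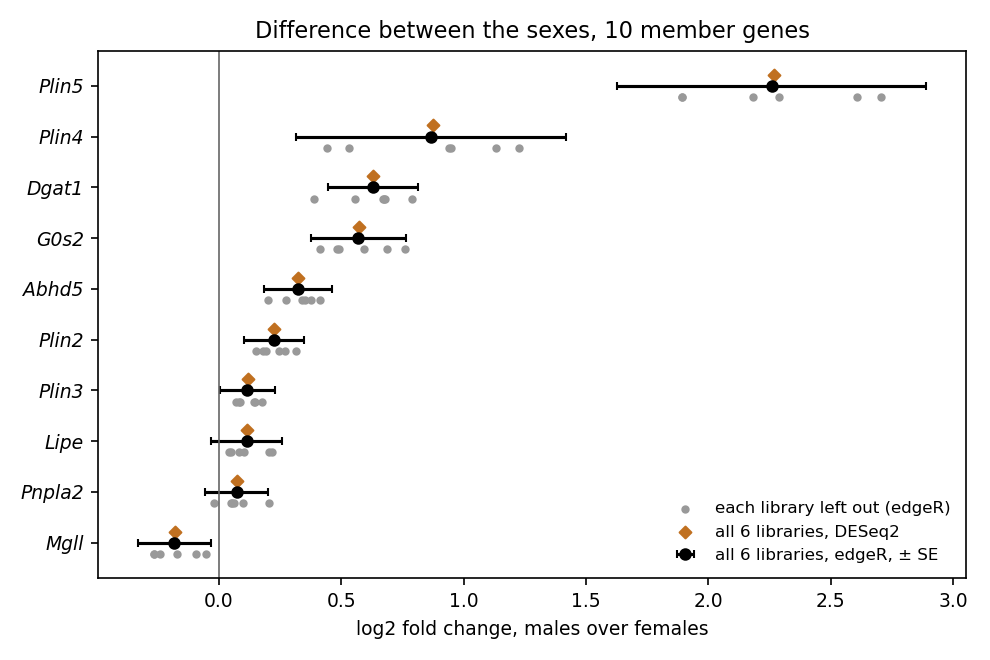
Log2 fold change of males over females for the 10 genes, with the edgeR estimate of all 6 libraries and its SE in black, the DESeq2 estimate as a diamond and the edgeR estimates with each library left out as grey points. Plin5 has the largest value, 2.26, and Mgll, at -0.18, is the one gene below 0.

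Set against transcript length, the 10 genes fell into a large abundant group and a sparse pair. Pnpla2 and Plin2 came first, at a median over the 6 libraries of 35.6 and 34.1 CPM per kb of the canonical transcript, and their ranges overlapped. Dgat1 followed at 24.95 CPM per kb, then Abhd5 at 16.03, Mgll at 15.2, Plin3 at 13.4, G0s2 at 10.8 and Lipe at 6.13. Neighbours in this order overlapped from Abhd5 to G0s2, and so did Plin2 and Dgat1. Dgat1 lay above Abhd5, G0s2 above Lipe and Lipe above Plin5 with no overlap of ranges. Plin5 and Plin4 had medians of 0.181 and 0.0816 CPM per kb, with overlapping ranges. With the exonic bases of all transcripts as the length, Plin2 and Dgat1 changed places, as did G0s2 and Lipe, while Abhd5 moved from place 4 to place 6.

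**Figure D3:**
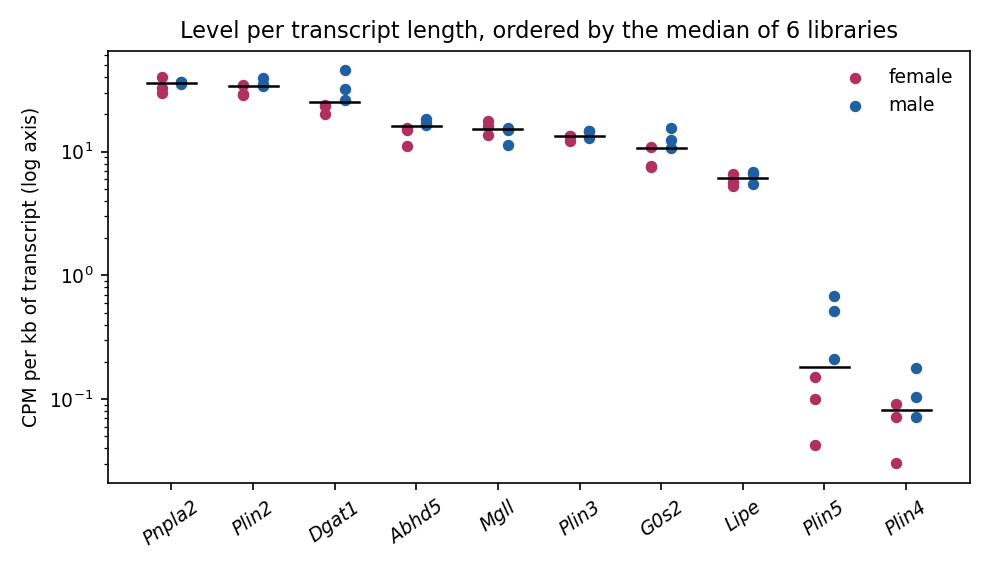
CPM per kb of the canonical transcript on a log axis, with the genes ordered by the median of the 6 libraries (black line) and each female (red) and male (blue) library as a point. The first 8 genes have medians of 6.13 to 35.6 CPM per kb, and Plin5 and Plin4 lie below 1.

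Positions are those of the GRCm39 annotation. Pnpla2 (chr7:141034404-141040656) and Lipe (chr7:25078880-25098135) are on chromosome 7, Mgll is at chr6:88652108-88805342, Abhd5 at chr9:122180621-122222936, G0s2 at chr1:192949563-192956177, Plin2 at chr4:86565912-86588459 and Dgat1 at chr15:76385083-76396476. The perilipins Plin4 (chr17:56406617-56416931), Plin5 (chr17:56418446-56424610) and Plin3 (chr17:56584218-56599873) are all on the minus strand of chromosome 17, Plin4 and Plin5 close together and Plin3 farther along. Exons of G0s2 share 119 bases with Lamb3 on the other strand, which was at 1.02 to 2.02 CPM. Lipe and Abhd5 each share exonic bases with an opposite-strand gene at or below 0.171 CPM. Pnpla2, Mgll, Plin3 and Abhd5 share 867, 496, 141 and 70 exonic bases with opposite-strand genes that have no row of counts.

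Promoters are shown for 3 of the 4 genes at an unadjusted p under 0.05, those matched among the RefSeq promoters used here (GRCm38.p6). Of the 10 genes 9 were matched there, and Dgat1 was not. Each runs from 250 bases before to 50 bases after a start site, 5′ to 3′ along the gene. Capitals mark the nuclear receptor letters AGGTCA on either strand (TGACCT where on the other strand). They lie at chr17:56117499-56117798 (Plin5, minus strand, the start site farther upstream), chr1:193273139-193273438 (G0s2, minus strand) and chr9:122351366-122351665 (Abhd5, plus strand).

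Plin5: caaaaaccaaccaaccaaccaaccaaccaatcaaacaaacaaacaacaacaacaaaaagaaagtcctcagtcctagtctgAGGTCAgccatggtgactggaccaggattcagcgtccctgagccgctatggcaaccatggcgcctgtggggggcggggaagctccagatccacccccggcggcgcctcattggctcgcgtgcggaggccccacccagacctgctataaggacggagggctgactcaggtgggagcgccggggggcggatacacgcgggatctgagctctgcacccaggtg
G0s2: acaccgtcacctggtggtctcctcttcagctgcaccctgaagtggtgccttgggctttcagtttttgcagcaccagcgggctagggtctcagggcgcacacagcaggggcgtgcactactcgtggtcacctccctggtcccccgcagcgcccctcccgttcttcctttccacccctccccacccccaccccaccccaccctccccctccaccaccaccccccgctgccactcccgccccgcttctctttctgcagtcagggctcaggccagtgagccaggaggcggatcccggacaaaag
Abhd5: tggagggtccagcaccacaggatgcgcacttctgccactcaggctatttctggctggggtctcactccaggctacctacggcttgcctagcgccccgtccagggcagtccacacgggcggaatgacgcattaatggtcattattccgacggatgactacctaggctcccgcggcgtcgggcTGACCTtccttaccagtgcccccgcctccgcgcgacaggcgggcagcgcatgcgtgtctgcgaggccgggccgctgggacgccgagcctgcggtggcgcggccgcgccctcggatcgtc

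AGGTCA was found once in the Plin5 window, beginning 170 bases before the start, and once in the Abhd5 window, 69 bases before it. Of the 12 promoters of the 9 genes, 4 held it, those of Plin5 (both starts), Abhd5 and Plin2, and 16.3% of all 32851 promoters of that length did. The E-box letters CACGTG, which read alike on both strands, were in the promoters of Lipe, Mgll and Plin2, 3 of 12, where 7.15% of all promoters held them. On either strand, the direct repeat of AGGTCA with 1 base between the copies, the oestrogen response element (GGTCA and TGACC with 3 bases between) and the cAMP response element TGACGTCA were in 0 of the 12, where 0.0396%, 0.07% and 1.79% of all promoters held them. These are letter matches in a fixed window, not measured binding.

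Genes that act with these 10 were taken as 5 lists of 70 genes, of which 65 were tested and 0 passed after adjustment in edgeR, where 0.0411% of all genes did, while DESeq2's Wald test called 2 of them, Plin1 and Npr1, where 2.02% of all genes passed. At an unadjusted p under 0.05 there were 5 with the higher level in males and 9 with the lower, where 5.03% and 4.76% of all genes tested were, and the median log2 fold change of the 65 was -0.12. The median of each list lay below 0, from -0.25 to as little as -0.06, where that of the 10 genes lay above it, a difference with no test here.

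**Figure D4:**
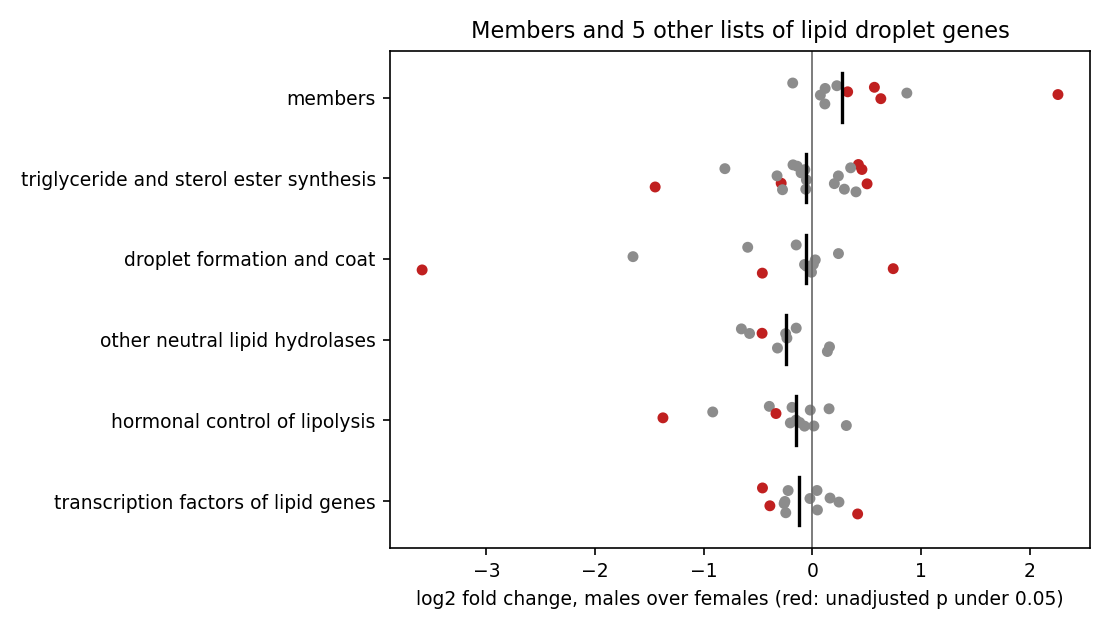
Log2 fold change of males over females for the 10 genes and 5 other lists, with each gene tested as a point (red where the unadjusted p was under 0.05) and the list's median as a black line. The median of the 10 genes is 0.27 and those of the other lists lie between -0.25 and -0.06.

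In triglyceride and sterol ester synthesis, 19 genes were tested, 3 at an unadjusted p under 0.05 with the higher level in males and 2 with the lower, and the median log2 fold change was -0.06. The most abundant were Acsl5, which activates long-chain fatty acids, at 96.9 ± 5.16 CPM in females and 85.6 ± 2.27 in males (SD, n = 3), and Agpat3, an acyltransferase, at 75.5 ± 7.23 and 61.8 ± 7.68 CPM. Mogat1, which makes diglyceride, had 1.40 ± 0.0326 CPM in females and 0.511 ± 0.135 in males without overlap (log2 fold change -1.45 ± 0.38, adjusted p = 0.240, edgeR). Acsl6 was at 0.541 ± 0.202 and 0.307 ± 0.179 CPM, from 5 to 36 counts a library, and its groups overlapped. Dgat2, the other enzyme of the last step of synthesis, named after its values were seen, lay at 0.46 ± 0.12 on the log2 scale (adjusted p = 0.259, edgeR), near Dgat1, and its groups did not overlap.

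In droplet formation and coat, 12 of 14 genes were tested, with 1 higher and 2 lower in males at an unadjusted p under 0.05 and a median of -0.06. Plin1, the perilipin of adipocytes, had 59, 44 and 91 counts in females and 8, 0 and 7 in males. That is 0.938, 0.832 and 1.94 CPM against 0.152, 0 and 0.148 CPM, with no overlap (log2 fold change -3.59 ± 0.80, adjusted p = 0.158 in edgeR and 3.5e-04 in DESeq2's Wald test). Cidec, which fuses droplets in adipocytes, lay at 0.586 ± 0.337 and 0.186 ± 0.171 CPM, from 3 to 44 counts a library, and its groups overlapped. Its log2 fold change was -1.65 ± 0.76 (adjusted p = 0.512, edgeR), and it was -2.69 without male replicate 3 and -1.15 without female replicate 3. The abundant members Aup1 and Hsd17b11 had log2 fold changes of -0.05 ± 0.11 and 0.01 ± 0.11, with directions that reversed under some alternatives.

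In the other neutral lipid hydrolases, 9 of 10 genes were tested and 1 was at an unadjusted p under 0.05, lower in males, with a median of -0.25. Lpl, which frees fatty acids from lipoproteins at the vessel wall, was the most abundant, at 973 ± 169 CPM in females and 618 ± 299 in males (log2 fold change -0.65 ± 0.31, adjusted p = 0.531, edgeR), with a log2 fold change of -0.37 without male replicate 2 and of -1.10 without male replicate 3 (adjusted p = 0.0654). Lipa, the lysosomal acid lipase, was at 219 ± 7.42 and 159 ± 25.3 CPM with no overlap (log2 fold change -0.46 ± 0.14, adjusted p = 0.301, edgeR). Lipg, endothelial lipase, was at 4.87 ± 2.11 and 3.26 ± 0.838 CPM.

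In the hormonal control of lipolysis, 13 of 14 genes were tested, with 2 at an unadjusted p under 0.05, both lower in males, and a median of -0.15. Npr1, the natriuretic peptide receptor, was at 10.6 ± 4.59 CPM in females and 4.11 ± 1.98 in males, with 1 female library below the highest male library (log2 fold change -1.38 ± 0.40, adjusted p = 0.298 in edgeR and 0.0140 in DESeq2's Wald test). Adrb3, the adrenergic receptor of fat cells, was at 0.305 ± 0.0449 and 0.159 ± 0.0702 CPM, from 4 to 18 counts a library. Gnas and Prkar1a, parts of the cAMP pathway, had log2 fold changes of -0.15 ± 0.13 and -0.02 ± 0.12, and that of Prkar1a reversed without some libraries.

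In the transcription factors of lipid genes, 12 of 13 were tested, 1 higher and 2 lower in males at an unadjusted p under 0.05, with a median of -0.12. Pparg, the master regulator of adipocyte genes, was at 76.2 ± 8.87 CPM in females and 55.4 ± 9.26 in males with no overlap (log2 fold change -0.46 ± 0.15, adjusted p = 0.334, edgeR). Cebpb was at 50.9 ± 7.99 and 67.9 ± 12.9 CPM (log2 fold change 0.42 ± 0.17, adjusted p = 0.446, edgeR). Srebf2 and Foxo1, the most abundant, had log2 fold changes of -0.25 ± 0.12 and 0.05 ± 0.14, the latter reversed without some libraries.

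Of the 75 markers tested in 7 cell type lists, 0 passed edgeR's test between the sexes (lowest adjusted p = 0.0547), 49 were at an unadjusted p under 0.05 and DESeq2's Wald test called 22. Over all genes tested these shares were 0.0411%, 5.03% higher and 4.76% lower in males, and 2.02%. The summed levels of 5 lists did not overlap between the female and male libraries. The summed level of 15 neutrophil markers was 19537 to 23896 CPM in females and 33144 to 45045 CPM in males, and 14 of the 15 had a log2 fold change above 0, S100a8 at 1.06 ± 0.21 and S100a9 at 0.97 ± 0.20, while Mpo at -0.61 ± 0.34, Elane at 0.17 ± 0.33 and Prtn3 at 0.19 ± 0.31 overlapped between the sexes. That of 10 adipocyte markers was 367 to 623 CPM in females and 163 to 322 CPM in males, with 7 of the 9 tested below 0 on the log2 scale (Adipoq -1.69 ± 0.37, Fabp4 -0.91 ± 0.37) and 2 above (Retn 0.17 ± 0.39, Slc2a4 0.16 ± 0.38), and with Lep at 0 in 5 of the 6 libraries. Plin1, Cidec and Pparg, described above, are 3 of those 7. Fabp4 made up much of the adipocyte sum, and the study found it in bone endothelial cells too. Its level was 154, 188 and 330 CPM in females and 86.6, 84.2 and 188 CPM in males, with overlap. The adipocyte sum is therefore not a measure of adipocytes alone. The 15 endothelial markers summed to 373 to 540 CPM in females and 217 to 338 CPM in males, all 15 below 0, with Cdh5 at -1.17 ± 0.36, Emcn at -0.81 ± 0.33 and Pecam1 at -0.23 ± 0.13. Taken singly, 11 of the 15 overlapped between the sexes, Cdh5, Emcn and Pecam1 among them. The 10 macrophage markers summed to 4843 to 5197 CPM in females and 3257 to 4325 CPM in males, and all 10 had a log2 fold change below 0. The 10 erythroid markers summed to 12151 to 17454 CPM in females and 18459 to 27135 CPM in males, with 8 above 0 and 2 below (Epor -0.46 ± 0.19, Gata1 -0.25 ± 0.26). Nearly all of that sum came from 4 globins, and the other 6 markers summed to 332 to 506 CPM in females and to 333 to 649 CPM in males. The 9 stromal markers, all 9 below 0 (1428 to 2966 and 1231 to 2363 CPM) and the 7 B cell markers found (2795 to 3206 and 2812 to 3242 CPM) overlapped. For the 5 lists without overlap the exact two-sided permutation p was 0.1, the smallest that 3 against 3 libraries allow, and it was 0.3 for the stromal and 1 for the B cell markers. Their part in the levels of the 10 genes and of Plin1, Cidec, Pparg and Npr1 was not tested.

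**Figure D5:**
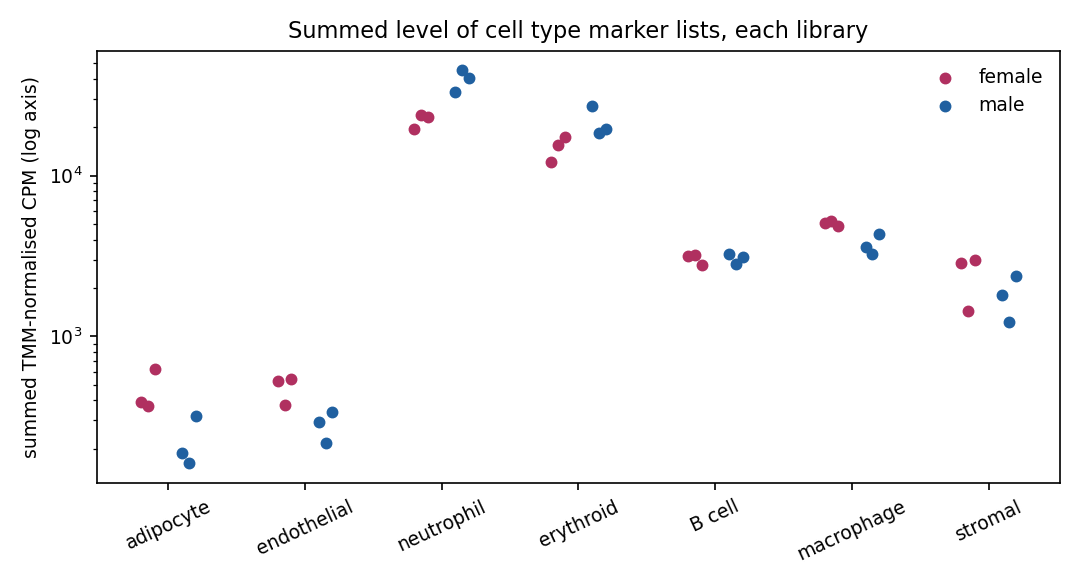
Summed TMM-normalised CPM of 7 lists of cell type markers on a log axis, with each female (red) and male (blue) library as a point. Neutrophil and erythroid markers lie higher in every male library, and adipocyte, endothelial and macrophage markers lower.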

How the data were processed

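RNA of cells labelled as endomucin-purified BECs was sequenced in 6 libraries, 3 per sex. The authors deposited whole-number counts per gene, not normalised. Per the labels, the submitters' processing notes name TopHat2 2.0.11, featureCounts, mm9 and NCBIM37, while the study's methods name another aligner and GRCm39, so the build behind the counts is uncertain. The strand setting is not given in the sources used here. Gene symbols came from Ensembl identifiers in the GENCODE annotation of GRCm39, which matched 31073 of 37991 rows and 96.2% of counts, and promoters from RefSeq on GRCm38.p6. No coordinates were carried between builds.

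Counts were tested as deposited in edgeR 4.0.16 (R 4.3.3): TMM scaling, filterByExpr by group, a robust quasi-likelihood fit of males over females, with p-values adjusted (Benjamini-Hochberg) across all 19480 genes that passed the filter. DESeq2 1.42.0 was an alternative. SE was taken as |log2 fold change|/√F. The fits were run on simulated counts with known fold changes, and a limit on false calls was set there for the edgeR fits alone. Summed markers were compared by an exact permutation test (scipy 1.17.1). Total counts were 47678806 to 58325745 per library, so genes of a few counts, such as Plin5, carry large counting error. Alternatives were DESeq2 size factors, total counts alone, no filter, at least 10 counts in every library, leaving out the 7 genes above 1% of a library, a replicate block, and leaving out each library.

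The genes and lists were chosen with earlier results of these data known. Named genes are the 10 members, every called gene of each other list, its 2 most abundant and its 2 with the largest fold change, and set markers. Lengths are those of the canonical transcript; the exonic bases of all transcripts were an alternative chosen after seeing the data.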

Additional observations from a re-analysis of the deposited data

How the results depend on the processing

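Across 14 alternatives the log2 fold changes of the 10 genes kept their direction in all 139 fits but 1 (Pnpla2, -0.0191 without female replicate 3, in a range up to 0.206 with each library left out), and 4 fits passed the threshold, 2 for Plin5 and 2 for Dgat1. The 8 genes called of all genes became 14 with total counts alone, 98 with no filter on low counts and 354 with DESeq2's Wald test, and lay between 5 and 96 with each library left out, 5 without female replicate 2 and 96 without male replicate 3. Genes at an unadjusted p under 0.05 numbered 965 to 2826 with each library left out, 965 without male replicate 2, beside 1908. Members at that p numbered 2 to 4, with 2 without female replicate 1 and 2 without male replicate 2. DESeq2's Wald test called 1 member, 1 gene of droplet formation and coat (Plin1) and 1 of hormonal control (Npr1). With the 7 most abundant genes left out, the neutrophil markers differed by 5184 CPM in place of 17254, since S100a8 and others were removed by construction. The B cell difference of -8.03 CPM ranged from -141 to 112 with each library left out, being 51.8, 64.6 and 112 without female replicates 1 and 2 and male replicate 2.

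Small fold changes also reversed, with each library left out in turn. Aup1 ranged from -0.108 to 0.0014, Foxo1 from -0.0914 to 0.134, Hsd17b11 from -0.0386 to 0.0678 and Prkar1a from -0.0634 to 0.0155. Hsd17b11 was also at -0.0047 with total counts alone. The cause was not tested.

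The labels give both sexes replicate numbers, but same-number libraries deviated together only weakly (correlations 0.0402 to 0.298 across genes, 5 of 6 libraries best with their own number), so they were not taken as pairs. With the replicate block, edgeR called 428 genes and 1 member (Dgat1, adjusted p = 0.0277), with 1 gene each of droplet formation and hormonal control. With DESeq2 and the block there were 715 genes, 2 members (Dgat1 and Plin5), 1 and 1 gene of those lists, 2 other hydrolases (Lipa and Lpl) and 2 transcription factors (Pparg and Cebpb). Counting depth limits Plin4 and Plin5, with 6 to 75 counts a library. It also limits Plin1 (0 to 91 counts), Cidec (3 to 44), Adrb3 (4 to 18) and Acsl6 (5 to 36).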
